A study of Sus scrofa with 12 samples.

Results

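The genes described here encode MAP kinases, the kinases that act above them, and protein phosphatases with their regulatory subunits. They were taken by name, as every symbol in the deposited table that starts with MAPK, MAP2K, MAP3K, MAP4K, DUSP, PTPN, or PPP and a digit, with DUSP5 and PTPN12 left out. This gave 76 of the 7480 genes measured, 23 with kinase-cascade symbols and 53 with phosphatase symbols, and all 76 have an entry in the pig tables. The libraries were, per the labels, of peripheral blood mononuclear cells (PBMC) of crossbred Duroc, Landrace and Yorkshire piglets that were 4 weeks old. The 3 groups held 4 libraries each. One was an untreated control, one was treated with Salmonella, and one was treated with Salmonella and a synthetic sponge oligonucleotide, which is meant to bind the microRNA miR-124. The series text names the bacterium as Salmonella Typhi and puts collection 12 h after treatment. Column names and titles of the last group give miR-124 without the word sponge, which comes from the sample descriptions, and no group had the sponge without Salmonella. The labels do not say which of the 20 piglets each library came from, so p-values measure the spread between these libraries only, which may be technical.

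MAP kinases are the last step of a relay in which a MAP3K phosphorylates a MAP2K and the MAP2K phosphorylates the MAP kinase. The relays end in ERK, JNK and p38 and carry signals from Toll-like receptors and antigen receptors to cytokine genes in blood leukocytes. Dual-specificity phosphatases (DUSPs) and some tyrosine phosphatases (PTPNs) switch MAP kinases off. PP1, PP2A and calcineurin are serine/threonine phosphatases whose partner subunits set what they act on, and calcineurin is the phosphatase that activates NFAT in T cells.

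The deposited values were on a logarithmic scale, taken here as log2, and ran from 2.13 to 15.01. The depth of sequencing is unknown. A set of 186 symbols of olfactory receptor, keratin-associated and like genes, which are not known to be used in blood, had a mean of 4.62 and a 95th percentile of 5.25, and levels in this range are called background here. Pig gene tables listed 53 of these 186. At an adjusted p below 0.05, 8 of the 186 were higher and 18 lower in Salmonella than in control libraries. Between sponge and Salmonella alone 10 were higher and 19 lower, and between sponge and control 8 were higher and 37 lower. A call at background level is thus no proof of a change in transcript. All 3 group means of 17 of the 76 genes lay below 5.25, and differences there are uncertain in size and in kind. Between 65.1% and 71.4% of values in each sponge plus Salmonella column were tied with another gene of the column, against at most 0.0802% in the other 8 columns. Treatment with the sponge and this property of the columns cannot be told apart. Salmonella replicate 1 stood apart from its group. It exceeded the other 3 Salmonella libraries by more than 1 log2 unit for 176 of all 7480 genes, against 7 to 22 genes for each of the others. Its mean correlation with the sponge plus Salmonella libraries was 0.953, against 0.915 to 0.938 for the other Salmonella libraries.

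Of the 76 genes, 13 were called higher and 14 lower in Salmonella than in control libraries, where a call is an adjusted p below 0.05 over all 7480 genes. That is 35.5% of the 76, close to the 33.6% of all genes that were called, so the number of calls does not set these genes apart. By direction, 17.1% were higher and 18.4% lower, against 15.7% and 17.9% of all genes. Centring the columns on their medians changed the split to 10 higher and 18 lower. The median log2 difference was 0.02 over the 76 genes and -0.02 over all genes. A called change of 1 log2 unit or more was seen for 7 rises and 7 falls, against 8.02% and 6.46% of all genes. The 4 values of one group lay wholly above or below those of the other for 31 of the 76 genes (40.8%), against 35.6% of all genes.

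With the sponge, 15 of the 76 genes were higher and 3 lower than with Salmonella alone. Together these are 23.7% of the 76, against 25.0% of all genes. Higher calls made up 19.7% of the 76, against 11.9% of all genes, and lower calls 3.95%, against 13.2%. Calls of 1 log2 unit or more were 9 rises and 2 falls, against 4.84% and 4.16% of all genes. Without Salmonella replicate 1, 6 were lower. The median difference was 0.01 over the 76 genes and -0.04 over all genes. Values of these groups did not overlap for 16 of the 76 genes (21.1%), against 23.8% of all genes. Of the 23 genes with a control mean below 4.62, 7 were called higher and none lower, against 16.2% and 8.19% of all genes at that level. Of the 4 from there to 5.25, 1 was higher. Of the 24 from 5.25 to 8, 2 were higher and 3 lower, against 10.3% and 16.2%. Of the 25 at 8 or more, 5 were higher and none lower, against 13.8% and 20.1%. Part of the rises were thus in genes at background level in control libraries.

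Against control libraries, 22 of the 76 were higher and 13 lower with the sponge and Salmonella (46.1% called, against 40.9% of all genes, with 17.9% of all genes higher and 23.0% lower). The groups did not overlap for 33 of the 76 (43.4%), against 39.7% of all genes. Centring changed the split to 22 higher and 19 lower. Centring moved every difference in this comparison by -0.12, and directions are given here on the scale without it. The median difference was 0.08 over the 76 genes and -0.07 over all genes. A called change of 1 log2 unit or more was seen for 14 rises and 2 falls, against 9.02% and 5.68% of all genes. The lower count fell to 6 without control replicate 1, to 7 without control replicate 3, and to 8 without control replicate 4 or without sponge plus Salmonella replicate 2.

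The comparisons share libraries, so their calls are set side by side here without a test, each count beside the same over all genes. Of the 13 genes higher with Salmonella, 3 were lower again with the sponge, namely MAPK1IP1L, MAPKAP1 and PPP1R3D (23.1%, against 37.9% of the 1175 genes higher with Salmonella among all genes). Of the 14 genes lower with Salmonella, 6 were higher again with the sponge (42.9%, against 23.8% of the 1338 lower among all genes). These were MAPK8, PPP1R2, DUSP14, DUSP8, MAP4K2 and PPP1R16B. A further 9 genes (11.8%, against 5.19% of all genes) were called higher with the sponge against both other groups and were not called between Salmonella and control: DUSP11, MAP2K2, MAP3K1, MAPK9, PPP1CC, PPP1R14D, PPP1R15B, PPP3CA and PTPN13. Control means of DUSP11, MAPK9, PPP1R14D, PPP1R15B, PPP3CA and PTPN13 lay below 4.62. Of all genes with such control means, 29.8% were called higher with the sponge and Salmonella than in control, against 17.9% at any level. The share of 5.19% does not take level into account. In all, 33 of the 76 genes (43.4%, against 42.0% of all genes) were called in none of the 3 comparisons, among them MAPK3.

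**Figure D1:**
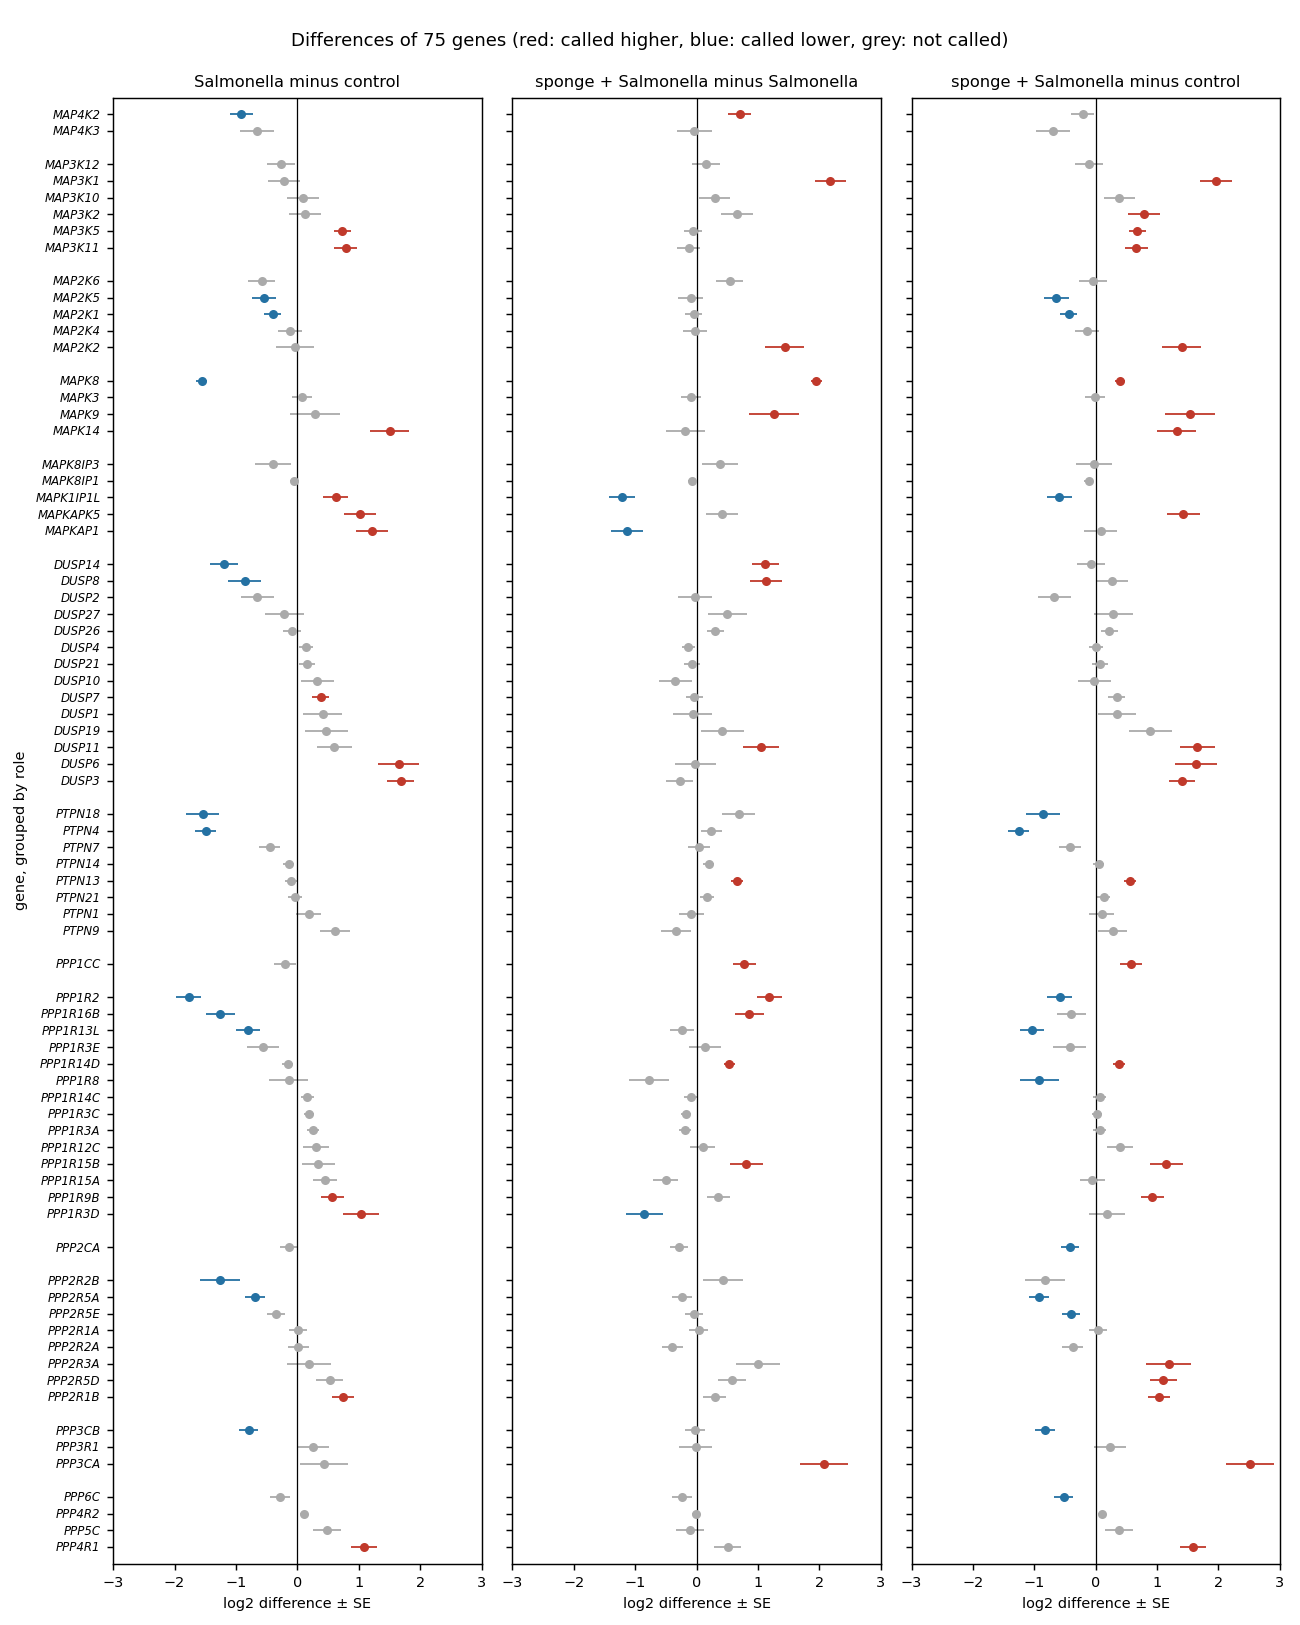
Log2 difference with its standard error for 75 of the 76 genes (rows, grouped by role) in the 3 comparisons (panels), from limma fits with 4 libraries per group. Red marks genes called higher, blue genes called lower and grey genes not called, and a reader should see 13 red and 14 blue points on the left, 15 and 3 in the middle, and 22 and 13 on the right.

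Markers of the cell types in these samples moved between the same groups. Of 15 T cell markers 11 were measured, and 10 were called lower with Salmonella. Their mean level was 8.81 to 9.14 in control, 7.48 to 7.97 in Salmonella and 8.35 to 9.04 in sponge plus Salmonella libraries, where 10 were called higher than with Salmonella alone. The 4 measured of 9 B cell markers had mean levels of 8.68 to 9.26, 6.58 to 7.16 and 8.21 to 8.71 in the same order. The 6 measured of 10 NK and cytotoxic markers ran from 10.40 to 10.94, 8.81 to 9.61 and 8.99 to 9.64. Monocyte markers went the other way, with 6 of 9 measured and all 6 called higher with Salmonella, at 6.66 to 7.37, 8.96 to 9.13 and 7.87 to 8.46. Neutrophil markers (7 of 11 measured) stood at 6.48 to 7.06, 6.78 to 8.04 and 6.42 to 6.92, platelet markers (6 of 8) at 7.92 to 8.23, 8.57 to 9.17 and 8.76 to 9.24, and erythroid markers (3 of 6) at 8.85 to 9.77, 10.05 to 10.79 and 7.49 to 9.82. The neutrophil markers did not move together: with Salmonella 2 were called higher (S100A12 by 3.37 and MPO by 1.08) and 1 lower (RETN by -1.54). The neutrophil marker MMP8 and the platelet marker PF4 lay below 5.25 in all 12 libraries. In these bulk samples fewer cells of a type and less RNA per cell cannot be told apart, and the part of the cell types in the differences below was not tested.

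Among the kinases at the top of the relay, the response differed from gene to gene. MAP4K2 (chromosome 2, 7365184 to 7378999 in Sscrofa11.1) encodes a kinase that feeds the JNK relay. Its levels were 10.99, 11.09, 10.54 and 10.98 in control replicates 1 to 4, 9.61, 10.07, 10.22 and 10.03 in Salmonella replicates 1 to 4, and 10.65, 10.27, 10.89 and 10.94 with the sponge. All Salmonella values lay below those of both other groups. The log2 difference was -0.92 ± 0.19 (SE) for Salmonella against control (adjusted p = 0.00166) and 0.71 ± 0.19 for the sponge against Salmonella alone (adjusted p = 0.0138). MAP4K3, the other MAP4K measured and chosen after its values were seen, had means of 6.18, 5.53 and 5.49 and passed in no comparison.

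Of 6 MAP3K genes, MAP3K5 and MAP3K11 were higher with Salmonella and none was lower, where 15.7% of all genes were higher and 17.9% lower. MAP3K5 encodes ASK1, which responds to oxidative stress. It rose from 8.68, 8.96, 8.65 and 8.94 in control to 9.61, 9.44, 9.46 and 9.66 in Salmonella libraries, with no overlap (log2 difference 0.73 ± 0.14, adjusted p = 0.00116), and stood at 9.29 to 9.63 with the sponge. MAP3K11 encodes the mixed-lineage kinase MLK3, which acts on the JNK relay, and rose from 6.61 to 6.94 in control to 7.36 to 7.87 in Salmonella libraries (0.79 ± 0.19, adjusted p = 0.00454). With the sponge its range was 7.26 to 7.71, and neither gene differed from Salmonella alone by the test (adjusted p = 0.793 and 0.633).

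MAP3K1 (chromosome 16, 35872301 to 35947097) had the largest difference with the sponge against Salmonella alone among the 76 genes with all libraries in the fit, though not without Salmonella replicate 1, where PPP3CA was higher by 2.63. It encodes MEKK1, a kinase above the JNK and ERK relays. Control libraries read 8.64, 9.40, 9.69 and 8.90, Salmonella libraries 9.67, 8.61, 8.88 and 8.60, and sponge plus Salmonella libraries 11.18, 11.34, 11.05 and 10.90. Every sponge value lay more than 1 log2 unit above every other value, while control and Salmonella values overlapped. The difference from Salmonella alone was 2.18 ± 0.25 (adjusted p = 1.3e-04) and from control 1.96 ± 0.25 (adjusted p = 9.3e-05). Without Salmonella replicate 1, which was the highest of its group, the former was 2.43 (adjusted p = 1.0e-05, against 1.3e-04 with all libraries). MAP3K2, which encodes MEKK2 and was named after its values were seen, was called higher with the sponge only against control (0.78 ± 0.26, adjusted p = 0.0271), and that call ended without control replicate 1 or sponge plus Salmonella replicates 2 or 3 (adjusted p 0.0669 to 0.0937). The 2 other MAP3K genes, MAP3K10 and MAP3K12, passed in no comparison.

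At the MAP2K step, MAP2K1 and MAP2K2 moved differently. They encode MEK1 and MEK2, the pair of kinases that phosphorylate ERK. MAP2K1 fell from 10.04, 10.06, 10.47 and 10.21 in control to 9.68, 9.76, 9.96 and 9.78 in Salmonella libraries and stayed at 9.61 to 9.83 with the sponge. The values do not overlap, but the fall was small (-0.40 ± 0.14, adjusted p = 0.0369), and the call ended without control replicates 3 or 4 or, of the Salmonella group, replicates 1, 2 or 4 (adjusted p 0.0652 to 0.111). Against control the sponge libraries were lower by -0.44 ± 0.14 (adjusted p = 0.0195, and 0.0619 without control replicate 3). MAP2K2 (chromosome 2, 74626739 to 74651352) had 6.72, 7.03, 7.05 and 6.29 in control and 7.31, 6.03, 6.81 and 6.79 in Salmonella libraries. With the sponge it reached 7.32, 8.27, 8.64 and 8.46, a difference of 1.43 ± 0.31 from Salmonella alone (adjusted p = 0.00486). The lowest sponge value of 7.32 and the highest Salmonella value of 7.31 were both in replicate 1 and nearly equal.

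MAP2K5 encodes MEK5, the activator of ERK5. It stood at 6.48 to 7.15 in control and 6.11 to 6.37 in Salmonella libraries, with no overlap (-0.55 ± 0.20, adjusted p = 0.0498). This call ended without control replicates 1 or 4, any 1 sponge plus Salmonella replicate or any 1 Salmonella replicate (adjusted p 0.0526 to 0.151), and also with the replicate block (0.0680) and with only the 2 groups in the fit (0.0605). Its level with the sponge was 6.11 to 6.27, called lower than control (-0.64 ± 0.20, adjusted p = 0.0209), and this call ended without control replicates 1 or 4 (adjusted p 0.0662 to 0.0710). MAP2K4, an activator of JNK and p38, had means of 7.98, 7.86 and 7.84 and was called nowhere. MAP2K6, an activator of p38, had means of 5.81 in control, 5.23 in Salmonella and 5.77 in sponge plus Salmonella libraries. All 4 Salmonella values lay below all others, but the gene passed neither against control (adjusted p = 0.0588) nor between sponge and Salmonella alone (adjusted p = 0.0922). It was called in both with no trend in the variance (0.0234 and 0.0445), and against control also with centred columns (0.0335) or only genes with a mean of at least 5 (0.0336).

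The MAP kinase genes of the ERK, p38 and JNK relays gave different values. MAPK3, which encodes ERK1, was called in no comparison. It had means of 8.45 ± 0.18 in control, 8.53 ± 0.12 in Salmonella and 8.44 ± 0.23 in sponge plus Salmonella libraries (SD, n = 4), and the 3 groups overlapped. Its log2 difference for Salmonella against control was 0.08 ± 0.16 (adjusted p = 0.746), and centring the columns turned it negative (-0.011).

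MAPK14 (chromosome 7, 31791398 to 31861544) encodes p38 alpha, which controls the making and stability of many cytokine transcripts. Its control values were 4.21, 4.11, 3.72 and 4.63, all near or below the background mean of 4.62. Salmonella libraries read 4.98, 5.51, 6.24 and 5.95, all above the control values, and sponge plus Salmonella libraries 5.63, 5.97, 5.72 and 4.64. The log2 difference was 1.5 ± 0.31 against control with Salmonella (adjusted p = 0.00200) and 1.32 ± 0.31 with the sponge and Salmonella (adjusted p = 0.00425). Between the treated groups it was -0.18 ± 0.31 (adjusted p = 0.690). Because the control level lies below 4.62, these folds are uncertain in size.

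MAPK8 (chromosome 14, 88988914 to 89108875) encodes JNK1. It read 4.35, 4.56, 4.38 and 4.58 in control, 2.98, 2.98, 3.08 and 2.6 in Salmonella, and 4.74, 4.94, 4.98 and 4.81 in sponge plus Salmonella libraries. Salmonella values were lower than all others by more than 1 log2 unit. The difference was -1.56 ± 0.09 for Salmonella against control (adjusted p = 8.0e-08) and 1.95 ± 0.09 for the sponge against Salmonella alone (adjusted p = 6.2e-09). All 3 group means lay below 5.25, the top of the background range, and those of control and Salmonella below its mean of 4.62. In each Salmonella library only 1 or 2 of the 7480 genes had a lower value than MAPK8, against 601 to 2132 genes in control libraries and 2532 to 3236 with the sponge. To 2 decimals, the Salmonella values of MAPK8 equal the lowest values of other columns. These were 2.98 in control replicates 1 and 3, 3.08 in control replicate 2 and 2.6 in sponge plus Salmonella replicate 4. Whether the transcript changed, and by how much, is therefore uncertain.

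MAPK9 (chromosome 2, 78338466 to 78399108) encodes JNK2. It was at 4.06, 3.89, 4.16 and 3.90 in control and at 5.85, 3.78, 3.54 and 3.96 in Salmonella libraries, so replicate 1 alone was high. Sponge plus Salmonella libraries read 5.79, 6.38, 5.14 and 4.87, above every control value (1.54 ± 0.41, adjusted p = 0.00797). Against Salmonella alone the difference was 1.26 ± 0.41 (adjusted p = 0.0351), and 1.78 (adjusted p = 2.9e-04) without Salmonella replicate 1. The control and Salmonella means of MAPK9 lay below 4.62, so these sizes are uncertain. The same call ended without Salmonella replicates 2, 3 or 4 or sponge plus Salmonella replicates 1 or 2 (adjusted p 0.0732 to 0.107), with no trend in the variance (0.0666) and with only the 2 groups in the fit (0.0669).

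**Figure D2:**
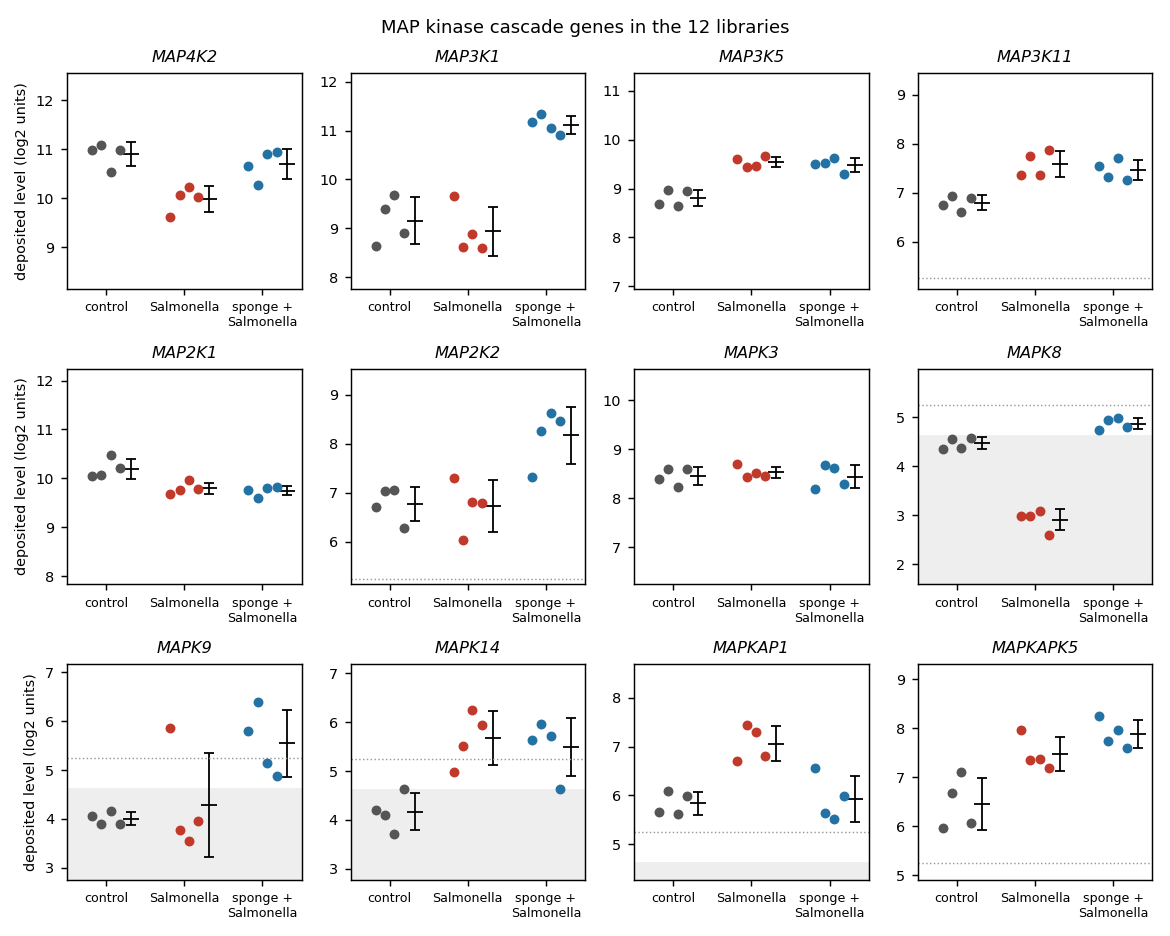
Deposited levels (vertical axis, log2 units) of 12 kinase-cascade genes in control, Salmonella and sponge plus Salmonella libraries, with points for replicates 1 to 4 from left to right and bars for the mean and SD of 4. Levels below the silent-set mean of 4.62 are shaded and the dotted line is at 5.25. MAPK8 drops to between 2.6 and 3.08 with Salmonella, and MAP3K1 stands at 10.90 to 11.34 with the sponge.

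Of the 5 genes named for partners or substrates of MAP kinases, 3 were higher with Salmonella and none lower, against 15.7% and 17.9% of all genes. MAPKAPK5 encodes a kinase activated by p38-type and atypical MAP kinases. It rose from 5.97, 6.68, 7.10 and 6.06 in control to 7.97, 7.35, 7.37 and 7.18 in Salmonella libraries (1.02 ± 0.26, adjusted p = 0.00838) and stood at 7.60 to 8.24 with the sponge. MAPKAP1 (chromosome 1, 266096192 to 266346384) encodes SIN1, a subunit of the mTORC2 complex. It read 5.66, 6.10, 5.63 and 5.99 in control, 6.70, 7.44, 7.30 and 6.80 in Salmonella, and 6.56, 5.64, 5.52 and 5.99 in sponge plus Salmonella libraries. Salmonella libraries were above all others, and the sponge libraries overlapped the control ones. The difference was 1.21 ± 0.27 against control (adjusted p = 0.00285) and -1.13 ± 0.27 with the sponge against Salmonella alone (adjusted p = 0.00750).

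MAPK1IP1L followed a similar order. Its values were 5.13 to 5.64 in control, 5.74 to 6.29 in Salmonella and 4.45 to 5.0 in sponge plus Salmonella libraries, with no overlap between any 2 groups. With the sponge it was lower than with Salmonella alone, by -1.21 ± 0.21 (adjusted p = 0.00121). Its rise with Salmonella (0.62 ± 0.21, adjusted p = 0.0316) ended as a call without control replicates 1, 2 or 4 or, of the Salmonella group, replicates 2 or 3 (adjusted p 0.0676 to 0.0872) and when columns were centred (0.0520). Its difference between sponge and control (-0.59 ± 0.21, adjusted p = 0.0343) ended without control replicates 2, 3 or 4 or sponge plus Salmonella replicates 1, 2 or 4 (adjusted p 0.0516 to 0.103). The JNK scaffold genes MAPK8IP1 and MAPK8IP3 were called nowhere.

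DUSP genes gave 3 rises and 2 falls with Salmonella among 14 (21.4% and 14.3%, against 15.7% and 17.9% of all genes). DUSP6 (chromosome 5, 93303058 to 93307510) encodes a cytoplasmic phosphatase specific for ERK whose gene is itself switched on by ERK signalling. Its levels were 7.92, 9.30, 9.58 and 8.78 in control, 11.38, 10.01, 10.12 and 10.66 in Salmonella, and 10.90, 10.68, 10.33 and 10.20 in sponge plus Salmonella libraries. All treated values lay above all control values, by 1.65 ± 0.34 (adjusted p = 0.00187) and 1.63 ± 0.34 (adjusted p = 0.00189). DUSP3 (chromosome 12, 19336308 to 19349739), a small phosphatase that acts on ERK and JNK, rose from 8.51, 8.81, 8.58 and 8.91 to 10.04, 10.59, 10.56 and 10.35 (1.68 ± 0.22, adjusted p = 4.6e-05). With the sponge it read 10.59, 10.45, 9.78 and 9.62. Neither gene differed between the treated groups by the test (adjusted p = 0.975 for DUSP6 and 0.360 for DUSP3).

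DUSP14 and DUSP8 were low with Salmonella and not with the sponge. DUSP14 (chromosome 12, 38941052 to 38978568), which restrains T cell receptor signalling, read 6.63, 6.74, 6.72 and 7.0 in control, 5.39, 5.77, 5.99 and 5.16 in Salmonella, and 6.73, 6.79, 6.90 and 6.37 in sponge plus Salmonella libraries. It fell by 1.20 on the log2 scale with Salmonella (SE 0.23, adjusted p = 0.00105) and was 1.12 ± 0.23 higher with the sponge than with Salmonella alone (adjusted p = 0.00321). Sponge and control libraries overlapped, with a difference of -0.07 ± 0.23. DUSP8, a phosphatase of JNK and p38, read 4.47, 5.45, 5.61 and 5.06, then 4.88, 4.29, 3.96 and 4.01, then 5.91, 5.34, 5.35 and 5.08 in the 3 groups. It was higher with the sponge than with Salmonella alone by 1.13 ± 0.27 (adjusted p = 0.00734). Its fall with Salmonella (-0.86 ± 0.27, adjusted p = 0.0212) ended as a call without control replicates 2 or 3 or, of the Salmonella group, replicates 3 or 4 (adjusted p 0.0584 to 0.0698). The Salmonella mean of 4.29 was below 4.62, so the sizes for DUSP8 are uncertain.

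DUSP11 acts on RNA 5' ends and not on MAP kinases, despite its name. It was at 4.01, 3.84, 4.27 and 3.98 in control, at 5.81, 4.41, 4.39 and 3.90 in Salmonella, and at 5.73, 5.83, 5.42 and 5.75 in sponge plus Salmonella libraries. Salmonella replicate 1 again read like the sponge libraries. The sponge difference was 1.66 ± 0.29 against control (adjusted p = 5.95e-04) and 1.05 ± 0.29 against Salmonella alone (adjusted p = 0.0168, and 0.0576 without Salmonella replicate 4). It was 1.45 (adjusted p = 2.9e-05) without Salmonella replicate 1, and the sizes are uncertain because the control mean of 4.03 was below 4.62. DUSP7, an ERK phosphatase named after its values were seen, was below 5.25 in all libraries. Its small rise with Salmonella (0.38 ± 0.14, adjusted p = 0.0454) ended as a call without any 1 control replicate, sponge plus Salmonella replicate 2 or, of the Salmonella group, replicates 3 or 4 (adjusted p 0.0547 to 0.118). The same call ended with centred columns (0.142), no trend in the variance (0.0692) and the replicate block (0.0563).

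DUSP1, an early brake on p38 and JNK that many stimuli induce, read 10.50, 10.73, 10.87 and 11.54 in control, 10.37, 11.82, 11.78 and 11.31 in Salmonella, and 10.64, 11.73, 11.46 and 11.20 in sponge plus Salmonella libraries. Groups overlapped, and the difference for Salmonella was 0.41 ± 0.32 (adjusted p = 0.342). DUSP2, a nuclear phosphatase of activated lymphocytes, had means of 7.11, 6.46 and 6.44 and was not called (adjusted p = 0.0776 for Salmonella and 0.0596 for the sponge and Salmonella, both against control). It was called lower in both when columns were centred (0.0459 and 0.0261) or control replicate 4 was left out (0.0369 and 0.0284), and in the second also with the replicate block (0.0474) or without sponge plus Salmonella replicate 2 (0.0333). DUSP10, a phosphatase of JNK and p38, had means of 5.52, 5.84 and 5.50. DUSP4, DUSP21 and DUSP26 stayed below 5.25 in all 3 group means. DUSP19, at means of 10.24 to 11.13, and DUSP27, at means of 5.42 to 5.92, were called nowhere either. DUSP19, DUSP21, DUSP26 and DUSP27 were named after their values were seen.

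PTPN genes gave 2 falls and no rise with Salmonella among 8, against 17.9% and 15.7% of all genes. PTPN4 (chromosome 15, 31305394 to 31502978) encodes a cytoskeleton-associated tyrosine phosphatase. It read 10.01, 9.59, 9.97 and 9.83 in control, 8.30, 8.43, 8.26 and 8.44 in Salmonella, and 8.60, 8.73, 8.15 and 8.90 in sponge plus Salmonella libraries. Both treated groups lay wholly below control, by -1.49 ± 0.17 (adjusted p = 1.8e-05) and -1.25 ± 0.17 (adjusted p = 1.3e-04), and they overlapped each other (adjusted p = 0.320). PTPN18, of the same PEST-type group as the omitted PTPN12, read 6.79, 5.60, 5.48 and 6.31 in control and 4.06, 4.63, 4.46 and 4.84 in Salmonella libraries (-1.55 ± 0.28, adjusted p = 6.7e-04). With the sponge its values of 4.93 to 5.42 lay between those of the other groups. They were called lower than control (-0.86 ± 0.28, adjusted p = 0.0219, ending without control replicates 1 or 4 or sponge plus Salmonella replicate 4 at 0.0579 to 0.0650). Against Salmonella alone they did not overlap, yet the difference of 0.68 ± 0.28 was not called (adjusted p = 0.0805). It was called with only the 2 groups in the fit (0.0216) or without control replicate 1 (0.0389). The Salmonella mean of PTPN18 was below 4.62.

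PTPN7, a leukocyte phosphatase that binds ERK and p38, was at 7.36 to 7.79 in control and at 6.95 to 7.22 in Salmonella libraries. The ranges do not overlap, yet the difference of -0.45 ± 0.18 was not called (adjusted p = 0.0604). It was called with centred columns, with no trend, with only genes with a mean of at least 5, with only the 2 groups and without sponge plus Salmonella replicate 3 (adjusted p 0.0212 to 0.0480). PTPN1, the phosphatase PTP1B that acts on cytokine and growth factor receptors, had means of 9.93, 10.11 and 10.02 and did not pass. PTPN13, a large scaffold-type phosphatase named after its values were seen, was higher with the sponge than with Salmonella alone (0.66 ± 0.10, adjusted p = 5.2e-04) and than control (0.56 ± 0.10, adjusted p = 6.5e-04), with all 3 means below 5.25. PTPN9, PTPN14 and PTPN21, also named afterwards, were called nowhere.

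**Figure D3:**
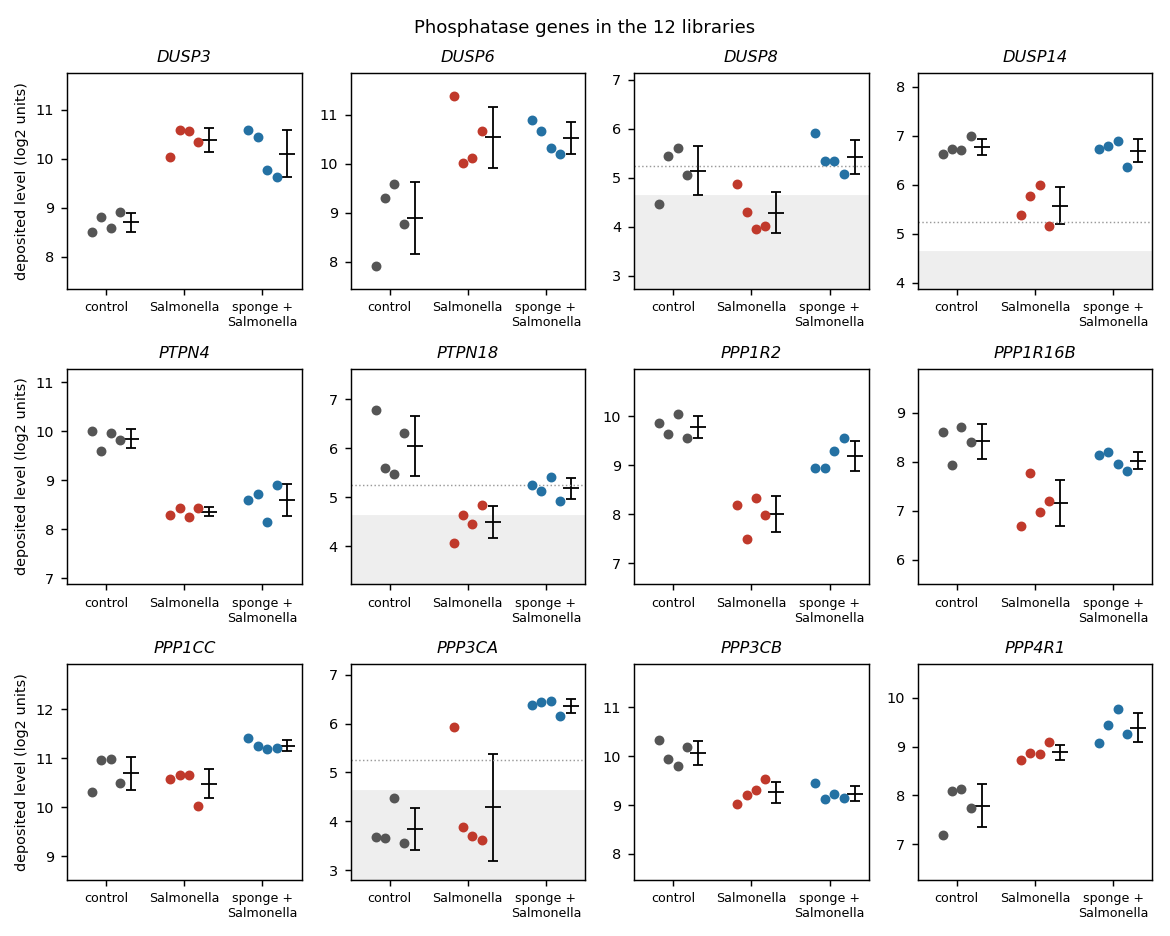
Deposited levels (vertical axis, log2 units) of 12 phosphatase genes in the same 3 groups, with points for replicates 1 to 4 from left to right and bars for the mean and SD of 4. Levels below 4.62 are shaded and the dotted line is at 5.25. DUSP3, DUSP6 and PPP4R1 are high in both treated groups, PTPN4 is low in both, and PPP3CA is below 4.62 in 7 of the 8 libraries without the sponge.

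PP1 was represented by 1 catalytic and 14 regulatory genes. PPP1CC (chromosome 14, 32071472 to 32091267), the gamma catalytic subunit, read 10.31, 10.96, 10.99 and 10.50 in control, 10.58, 10.66, 10.66 and 10.03 in Salmonella, and 11.41, 11.25, 11.18 and 11.20 in sponge plus Salmonella libraries. Every sponge value was above every other value. The difference was 0.78 ± 0.18 from Salmonella alone (adjusted p = 0.00757) and 0.57 ± 0.18 from control (adjusted p = 0.0220, and 0.0646 to 0.0785 without control replicates 1 or 4). The regulatory genes gave 2 rises and 3 falls with Salmonella (14.3% and 21.4%, against 15.7% and 17.9% of all genes). With the sponge against Salmonella alone they gave 4 rises and 1 fall (28.6% and 7.14%, against 11.9% and 13.2%).

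PPP1R2 (chromosome 13, 132460186 to 132489490), which encodes inhibitor 2 of PP1, had the deepest fall of the 76 genes with Salmonella. It went from 9.86, 9.64, 10.05 and 9.56 in control to 8.19, 7.49, 8.34 and 7.99 in Salmonella libraries and stood at 8.94, 8.95, 9.30 and 9.56 with the sponge. Sponge values lay between, above all Salmonella values and, to 2 decimals, up to the lowest control value. The differences were -1.77 ± 0.20 (Salmonella against control, adjusted p = 1.9e-05) and 1.19 ± 0.20 (sponge against Salmonella alone, adjusted p = 0.00124). The remaining gap to control, -0.59 ± 0.20 (adjusted p = 0.0329), ended as a call without control replicates 1 or 3 or sponge plus Salmonella replicates 1 or 2 (adjusted p 0.0752 to 0.0891). PPP1R16B, a PP1-targeting subunit at the cell membrane, followed the same order, with 7.93 to 8.72, 6.68 to 7.78 and 7.81 to 8.20. Its differences were -1.26 ± 0.24 (adjusted p = 9.8e-04) and 0.86 ± 0.24 (adjusted p = 0.0165), and sponge and control overlapped.

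PPP1R13L encodes iASPP, an inhibitor of p53. It fell from 6.01, 5.26, 5.98 and 5.42 in control to 5.01, 4.66, 4.65 and 5.13 in Salmonella libraries (-0.80 ± 0.20, adjusted p = 0.00556) and was at 4.51 to 4.69 with the sponge (-1.04 ± 0.20 from control, adjusted p = 9.3e-04). These treated levels lie in the background range. PPP1R8, which encodes a nuclear PP1 inhibitor, was at 6.0 to 6.65 in control, 5.46 to 6.51 in Salmonella and 4.48 to 5.95 in sponge plus Salmonella libraries. Its sponge level was called lower than control (-0.92 ± 0.32, adjusted p = 0.0326), a call that ended without control replicates 1, 3 or 4 or sponge plus Salmonella replicates 2 or 3 (adjusted p 0.0502 to 0.107) and with the replicate block (0.0537).

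PPP1R15A and PPP1R15B bring PP1 to the translation factor eIF2 alpha, the first on stress and the second at all times. PPP1R15A had means of 10.01, 10.46 and 9.96 and was not called (adjusted p = 0.0993 for Salmonella against control and 0.0784 for the sponge against Salmonella alone). PPP1R15B read 4.19, 4.05, 4.4 and 4.15 in control, 5.31, 4.30, 4.54 and 4.02 in Salmonella, and 4.83, 6.05, 5.56 and 4.96 in sponge plus Salmonella libraries. The sponge libraries were above control by 1.15 ± 0.27 (adjusted p = 0.00384), a size that is uncertain since the control and Salmonella means lay below 4.62. Against Salmonella alone the difference was 0.81 ± 0.27 (adjusted p = 0.0394). That call ended without control replicates 2 or 4, sponge plus Salmonella replicates 2 or 3 or, of the Salmonella group, replicates 2, 3 or 4 (adjusted p 0.0507 to 0.122), with no trend in the variance (0.0692) and with only the 2 groups in the fit (0.0806).

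Other PP1 regulators were named after their values were seen. PPP1R3D, which takes PP1 to glycogen, rose from 6.12 to 7.17 in control to 6.87 to 8.19 in Salmonella libraries (1.03 ± 0.30, adjusted p = 0.0154, ending without control replicate 1 or Salmonella replicate 3 at 0.0525 to 0.0544). With the sponge it was lower than with Salmonella alone (-0.85 ± 0.30, adjusted p = 0.0496). This second call ended without control replicates 2, 3 or 4, sponge plus Salmonella replicates 1, 3 or 4 or, of the Salmonella group, replicates 2, 3 or 4 (adjusted p 0.0522 to 0.135), with no trend (0.0608) and with only the 2 groups (0.0563). PPP1R9B, the actin-binding scaffold spinophilin, was higher with Salmonella (0.57 ± 0.18, adjusted p = 0.0270, ending without control replicates 1, 3 or 4 or Salmonella replicate 1 at 0.0569 to 0.0761, and with centred columns at 0.0541) and with the sponge and Salmonella (0.92 ± 0.18 against control, adjusted p = 0.00140), from a control mean of 4.43 below 4.62. PPP1R14D, an inhibitor of PP1, was higher with the sponge than with Salmonella alone (0.54 ± 0.10, adjusted p = 0.00160) with all 3 means below 5.25. PPP1R3A, PPP1R3C, PPP1R3E, PPP1R12C and PPP1R14C were called nowhere.

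PP2A genes moved little at the catalytic and main scaffold subunits. PPP2CA, a catalytic subunit, read 11.81, 11.74, 11.74 and 11.67 in control, 11.61, 11.58, 11.62 and 11.59 in Salmonella, and 11.73, 11.02, 11.20 and 11.33 in sponge plus Salmonella libraries. Control and Salmonella values did not overlap but were not called apart (-0.14 ± 0.15, adjusted p = 0.487). Its fall with the sponge against control (-0.42 ± 0.15, adjusted p = 0.0315) ended as a call without any 1 control replicate or sponge plus Salmonella replicates 2, 3 or 4 (adjusted p 0.0512 to 0.0961), and with only the 2 groups in the fit (0.0536). The scaffold gene PPP2R1A had means of 9.85, 9.86 and 9.90. The second scaffold gene, PPP2R1B, rose from 4.24 to 4.27 in control to 4.90 to 5.15 in Salmonella libraries (0.74 ± 0.18, adjusted p = 0.00545) and was at 4.93 to 5.95 with the sponge (1.04 ± 0.18 against control, adjusted p = 5.8e-04), from a control level below 4.62.

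Among the subunits that direct PP2A to its substrates, PPP2R5A fell from 10.05, 9.75, 9.93 and 10.25 in control to 9.01, 9.55, 9.25 and 9.44 in Salmonella and 8.90, 9.13, 8.99 and 9.29 in sponge plus Salmonella libraries. Both falls were called (-0.69 ± 0.16, adjusted p = 0.00466, and -0.92 ± 0.16, adjusted p = 6.3e-04). PPP2R2B, named after its values were seen, fell from 8.56 to 9.41 in control to 7.19 to 8.90 in Salmonella libraries, with overlap through Salmonella replicate 2 (-1.26 ± 0.33, adjusted p = 0.00796). PPP2R5D and PPP2R3A, also named afterwards, were higher with the sponge and Salmonella than in control by 1.10 ± 0.22 (adjusted p = 0.00153) and 1.19 ± 0.36 (adjusted p = 0.0170). All 3 means of PPP2R5D lay below 5.25, and the call of PPP2R3A ended without control replicate 1 or sponge plus Salmonella replicate 4 (adjusted p 0.0557 to 0.0587). PPP2R5E was lower in the same comparison (-0.40 ± 0.15, adjusted p = 0.0449). Its call ended without any 1 control replicate, sponge plus Salmonella replicates 2, 3 or 4 or, of the Salmonella group, replicates 2 or 3 (adjusted p 0.0515 to 0.115), with only the 2 groups (0.0637) and with the replicate block (0.0714). PPP2R2A was called nowhere.

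The 2 calcineurin catalytic genes differed in direction with the sponge and Salmonella against control. PPP3CB (chromosome 14, 76239497 to 76305345), the beta subunit, read 10.33, 9.94, 9.79 and 10.19 in control, 9.02, 9.20, 9.31 and 9.53 in Salmonella, and 9.45, 9.12, 9.22 and 9.15 in sponge plus Salmonella libraries. Both treated groups lay below control (-0.80 ± 0.16, adjusted p = 0.00163, and -0.83 ± 0.16, adjusted p = 0.00121) and were not called apart (adjusted p = 0.910). PPP3CA (chromosome 8, 119429181 to 119754615), the alpha subunit, read 3.69, 3.67, 4.48 and 3.56 in control, 5.93, 3.89, 3.70 and 3.62 in Salmonella, and 6.37, 6.44, 6.46 and 6.16 in sponge plus Salmonella libraries. All libraries without the sponge were below 4.62 except Salmonella replicate 1. Salmonella and control libraries were not called apart for PPP3CA (0.43 ± 0.39, adjusted p = 0.430). The sponge difference was 2.51 ± 0.39 against control (adjusted p = 2.9e-04) and 2.08 ± 0.39 against Salmonella alone (adjusted p = 0.00208), or 2.63 (adjusted p = 1.6e-06) without Salmonella replicate 1. The sizes are uncertain because the lower level is below the background mean. PPP3R1, the calcium-binding subunit, had means of 8.75, 9.0 and 8.99 and was called nowhere.

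In the related phosphatases PP4, PP5 and PP6, only PPP4R1 was called with Salmonella. PPP4R1 (chromosome 6, 98462833 to 98539649), a regulatory subunit through which PP4 restrains NF-kB in T cells, read 7.2, 8.10, 8.13 and 7.75 in control, 8.72, 8.86, 8.85 and 9.09 in Salmonella, and 9.08, 9.45, 9.76 and 9.25 in sponge plus Salmonella libraries. All treated values were above control (1.08 ± 0.21, adjusted p = 0.00135, and 1.59 ± 0.21, adjusted p = 1.2e-04). The treated groups overlapped only at 9.08 and 9.09 and were not called apart (adjusted p = 0.0930). PPP6C, the catalytic subunit of PP6, had means of 10.73, 10.44 and 10.21 and was called lower only with the sponge and Salmonella against control (-0.52 ± 0.16, adjusted p = 0.0171, ending without control replicate 1 or sponge plus Salmonella replicate 2 at 0.0525 to 0.0553). PPP5C, with means of 4.48, 4.97 and 4.86, and PPP4R2 lay in the background range and were called nowhere.

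**Figure D4:**
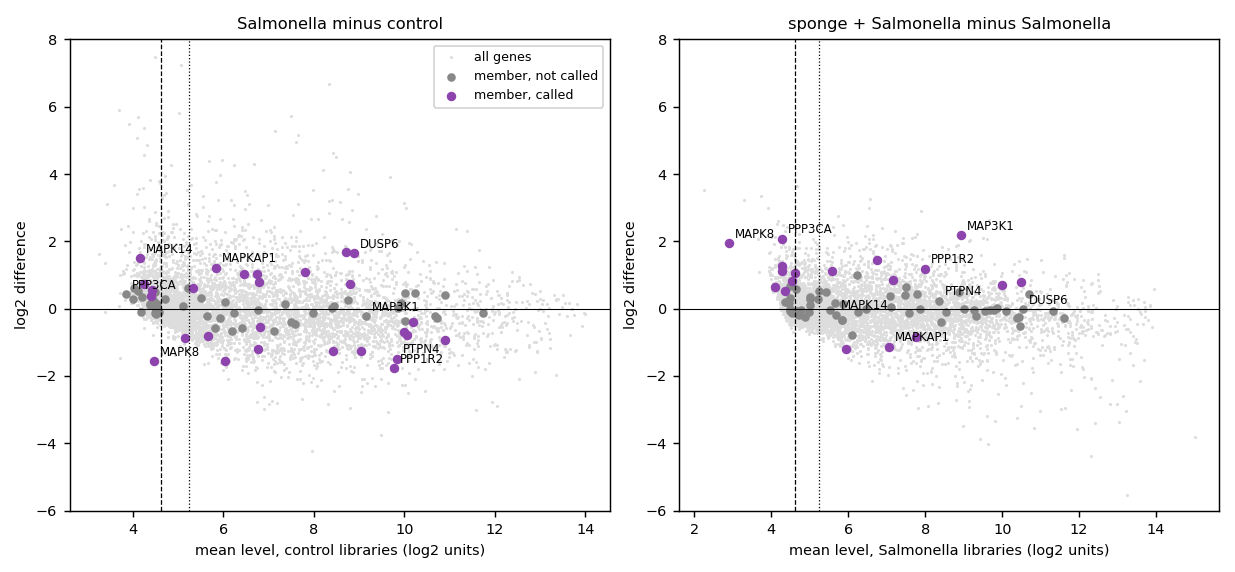
Log2 difference (vertical axis) against mean level in log2 units (horizontal axis, control libraries on the left and Salmonella libraries on the right) for all genes in light grey, with 75 of the 76 genes in dark grey or, when called, purple. Dashed and dotted vertical lines mark the background mean of 4.62 and its 95th percentile of 5.25. MAPK8 and PPP3CA lie at or left of the lines, whereas DUSP6, PTPN4, PPP1R2 and MAP3K1 lie well to the right, and 1 gene of the left panel that is not among the 76 lies outside the axis.

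Levels in control libraries differed widely within the group of 76, as the plot of difference against level shows. Control means of 23 of the 76 genes were below 4.62, and with the sponge and Salmonella 11 of these 23 were called higher and none lower. Over all genes with a control mean below 4.62 the shares were 29.8% higher and 5.80% lower. Control means of 25 genes were at 8 or more, and of these 5 were called higher and 8 lower in the same comparison, against 10.6% and 43.3% of all genes at that level.

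Genes around the relays were taken from lists, whose counts stand beside 15.7% higher and 17.9% lower among all genes with Salmonella, and 11.9% and 13.2% with the sponge against Salmonella alone. Of 34 genes of Ras, Raf and upstream adaptors, 18 were measured, and 4 were higher and 2 lower with Salmonella (median 0.07, against -0.02 over all genes). The 2 largest rises and the 2 falls were in GADD45G, a stress gene that activates MAP3K4 (1.10 ± 0.31, adjusted p = 0.0122), RRAS (0.95 ± 0.24, adjusted p = 0.00750), KSR2, a scaffold of the ERK relay (-1.03 ± 0.25, adjusted p = 0.00506), and RASA1, which switches Ras off (-0.68 ± 0.18, adjusted p = 0.00972). The control mean of GADD45G, 4.18, was below 4.62, so the size of its rise is uncertain. Only GADD45A was called between sponge and Salmonella alone (1.02 ± 0.33, adjusted p = 0.0351), and this call was lost without sponge plus Salmonella replicates 2, 3 or 4 or without Salmonella replicate 1 or 2 (adjusted p 0.0515 to 0.105).

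Downstream of the relays, 16 of 35 genes were measured, and 4 were higher and 7 lower with Salmonella (median -0.08). The early gene JUNB rose by 1.65 ± 0.31 (adjusted p = 9.9e-04). FOS rose by 0.99 ± 0.32 (adjusted p = 0.0278), a call lost without control replicates 1, 2 or 3 or without Salmonella replicate 2 or 4 (adjusted p 0.0516 to 0.0849). The ERK-activated kinase gene RPS6KA2 fell by 2.76 on the log2 scale (SE 0.25, adjusted p = 2.3e-06) to a mean of 3.98. RPS6KA3 fell from 3.73 to 2.25 (adjusted p = 2.1e-04). All of these means lay below 4.62. The lowest values of the Salmonella columns were 2.60 in replicate 1 and 2.13 in replicates 2 to 4, so RPS6KA3 was near the lowest value there. With the sponge these 2 kinase genes were higher than with Salmonella alone, at means of 6.11 and 5.77 (adjusted p = 1.2e-04 and 5.1e-07). The sizes for both genes are uncertain, and for RPS6KA3 with Salmonella so is whether the transcript changed. The count for the sponge was 4 higher and 1 lower (IER5, -0.72 ± 0.17, adjusted p = 0.00783).

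Other protein phosphatases were measured for 20 of 46 listed genes, with 2 higher and 7 lower with Salmonella (median -0.16) and 4 higher and 2 lower with the sponge against Salmonella alone. PPM1F fell from 10.98 to 9.56 with Salmonella (-1.42 ± 0.18, adjusted p = 3.6e-05) and PTPRJ rose (1.05 ± 0.28, adjusted p = 0.0105). The 2 largest rises with the sponge against Salmonella alone were in PPM1K (1.43 ± 0.37, adjusted p = 0.0122) and PTPRCAP (1.20 ± 0.21, adjusted p = 0.00152). PTPRCAP encodes a protein bound to the lymphocyte phosphatase CD45. The 2 falls were in PTPRE (-1.31 ± 0.40, adjusted p = 0.0257) and PHLPP1 (-0.78 ± 0.21, adjusted p = 0.0163). Leaving out 1 library ended both calls (highest adjusted p 0.0797 for PTPRE and 0.0508 for PHLPP1). Of 28 partners of PP1, PP2A and calcineurin 10 were measured, with 4 higher and 1 lower with Salmonella (median 0.27) and 4 higher and none lower with the sponge (median 0.36, against -0.04 over all genes). PHACTR1, which binds PP1 and actin, fell from 7.08 to 4.32 with Salmonella (-2.76 ± 0.31, adjusted p = 1.7e-05). The lower mean was below 4.62, so the size of this fall is uncertain. ARPP19, which encodes a protein that inhibits PP2A when phosphorylated, had means of 6.27, 7.42 and 9.37 and was 1.95 ± 0.46 higher with the sponge than with Salmonella alone (adjusted p = 0.00743).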

How the data were processed

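Libraries were made with an Illumina TruSeq kit from PBMC RNA (PAXgene kit, integrity number over 8) and sequenced as 50-base single reads, per the labels. The submitters' processing notes name Bowtie, R 3.4.2 and Sscrofa11.1. How reads were counted, normalized or filtered is not given in the sources used here. As deposited by the authors, the table holds log2 values, judged by their range since no base is stated. Because values are already logarithms, no count model and no pseudocount was used. All 7480 genes and 12 libraries entered a single limma fit (limma 3.58.1, R 4.3.3) of group means with a variance trend. Calls were Benjamini-Hochberg adjusted p-values below 0.05, and the procedure was tested on simulated data. Alternatives were centred columns, no trend, a mean of at least 5, only the groups compared, a replicate block and leaving out each library. Coordinates are RefSeq's for Sscrofa11.1, and no sequence was used here. The naming rule took, per comparison, the 10 largest called rises and falls without overlap, plus the 24 measured of 43 listed genes, 45 in all, of which 1 is not reported here. Listed pathway genes were examples from the 2 largest called changes each way, and not all of these are named. The 76 genes, the lists and the tests were chosen with earlier results of these data known. No columns were identical.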

Additional observations from a re-analysis of the deposited data

Results flagged for a closer look

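In 132 groups of 4 values (44 named genes in 3 groups), 4 held a value far from the other 3, judged by its gap to the nearest value relative to the group's range. Chance alone gives about 1 in 20 such groups. PPP3CA was high in Salmonella replicate 1, at 5.93 against 3.62 to 3.89, and in control replicate 3, at 4.48 against 3.56 to 3.69. PPP1CC was low in Salmonella replicate 4, at 10.03 against 10.58 to 10.66, and without that library its difference between sponge and Salmonella alone was 0.63 (adjusted p = 0.0254, against 0.00757 with all libraries). PTPN7 was high in sponge plus Salmonella replicate 3, at 7.50 against 7.04 to 7.06.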

How the results depend on the processing

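Of 132 differences of named genes 66 were called, and 50 of these kept their call and direction under every alternative that gave a value, 16 lost the call under at least 1, and 0 changed direction. Of the uncalled differences, 12 gained a call under at least 1 alternative. Leaving out each library gave 9 to 15 higher and 11 to 14 lower calls for Salmonella against control, 12 to 18 and 2 to 6 for the sponge against Salmonella alone, and 19 to 24 and 6 to 14 for the sponge and Salmonella against control. Asking also for 1 log2 unit left 7 higher and 7 lower, 9 higher and 2 lower, and 14 higher and 2 lower, in that order. Testing only genes with a mean of at least 5 left 8 higher calls for the sponge against Salmonella alone and 13 against control, and genes below that mean have no value there. The values did not show that equal replicate numbers pair the libraries, and with 4 libraries per group they cannot exclude it. Of 12 same-number pairs 2 had correlated deviations above 0.1 (range -0.36 to 0.38). In 2 of 12 searches, each from a control or Salmonella library into another group, the library most like it had the same number. With the replicate block the comparisons had 25, 18 and 34 calls, of which 25, 18 and 33 were shared with the fit without the block. Centring turned the sign of uncalled differences of DUSP4 (-0.12, the sponge and Salmonella against control), MAPK3 (-0.0107, Salmonella against control), MAPKAP1 (-0.0412, the sponge and Salmonella against control), PTPN1 (-0.0244, the sponge and Salmonella against control). Leaving out 1 library turned the sign of other uncalled differences. For Salmonella against control the ranges were MAP2K2 -0.22 to 0.20, MAP2K4 -0.26 to 0.0121, MAPK9 -0.24 to 0.53, PPP1R8 -0.28 to 0.0661, PPP3CA -0.12 to 0.65. For the sponge against Salmonella alone the ranges were DUSP1 -0.38 to 0.15, DUSP2 -0.19 to 0.0743, DUSP6 -0.19 to 0.26, MAP2K1 -0.081 to 0.0104, MAP2K4 -0.16 to 0.12, MAP3K5 -0.10 to 0.0107, MAPK14 -0.41 to 0.10, PPP3CB -0.11 to 0.0577, PPP5C -0.32 to 0.13, PTPN1 -0.25 to 0.0476, PTPN7 -0.0751 to 0.0772. For the sponge and Salmonella against control the ranges were DUSP10 -0.15 to 0.0969, DUSP14 -0.14 to 0.0381, DUSP4 -0.0243 to 0.0413, MAP2K6 -0.17 to 0.0607, MAPK3 -0.0847 to 0.074, MAPKAP1 -0.13 to 0.22, PPP1R15A -0.21 to 0.0341, PTPN1 -0.0622 to 0.21. The depth is unknown, and levels near background limit the sizes given for low genes.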

Other observations

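Salmonella replicate 1 exceeded the other 3 Salmonella libraries by more than 1 log2 unit for 4 of the 76 genes (DUSP11, MAPK9, PPP2R3A and PPP3CA, 5.26%), against 2.35% of all 7480 genes. Salmonella replicate 2 did so for 1 of the 76 (PPP2R2B), and replicates 3 and 4 for none. Values of 38 to 47 of the 76 genes were tied with another gene in each sponge plus Salmonella column, and none in the other 8 columns.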
